A study of Drosophila melanogaster with 2 samples.

Results

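Mediator is the multi-subunit coactivator that carries signals from DNA-bound transcription factors to RNA polymerase II. Chromatin immunoprecipitation with sequencing (ChIP-seq) peaks of the Drosophila melanogaster protein CG8478 lay at the promoters of 11 of its 29 subunit genes (37.9%, 95% exact binomial interval 20.7 to 57.7), against 22.6% of all 13968 protein-coding genes. The 29 are every protein-coding gene on the main chromosome arms whose symbol is MED with a number after it, plus kto, skd, CycC and Cdk8. The fly gene for MED29 is named ix, so the symbol rule leaves it out; its nearest summit was 34224 bp away. A gene is called bound here when the summit of a peak in the conservative list, the list made from both replicates together, lies at most 500 bp from one of its annotated start sites. The word says nothing about function. The interval covers the counting of genes only.

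The series has 1 group, whole embryos aged 0 to 24 h of a strain expressing CG8478 as a fusion to eGFP, with 2 biological replicates immunoprecipitated with an antibody to GFP. All animals carry the fusion, and the control experiment that the labels name was not analysed here. The promoter that drives the fusion is not given in the sources used here, and a whole-embryo pool mixes cell types and stages. The files hold peaks rather than reads, so the read depth is unknown and no test between groups exists.

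In its textbook form Mediator has a head, a middle and a tail, held together by MED14, and a kinase part that comes and goes. The head and middle contact RNA polymerase II, the tail is the main landing site for activators, and the kinase part, made in flies of Cdk8, CycC, kto (the fly MED12) and skd (the fly MED13), can block polymerase binding. The subunits are needed broadly across tissues, and their genes are of the kind often called housekeeping. Many housekeeping promoters of flies carry the DNA replication-related element (DRE), the site of the factor DREF, or Motif 1, the site of the factor M1BP.

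The DNA under the highest peaks, and under peaks that differ in motif content, is shown first. Each sequence is 201 bases of Release 6 (dm6) centred on a summit of the conservative list, read 5′ to 3′ on the strand of the Mediator gene. Capitals mark every match, on either strand, to the DRE core ATCGAT, to the whole DRE TATCGATA that contains it, or to the Motif 1 core GTCACACT. MED7 and MED27 had the highest Mediator peaks, kto was alone under its peak, MED28 holds 2 DREs, MED25 has its DRE near the start site, and MED19 holds Motif 1 and no DRE. The windows around the summits of MED6, MED30 and skd, not shown, hold no match to these letters.
MED7, chr3R:10761039-10761239, minus strand: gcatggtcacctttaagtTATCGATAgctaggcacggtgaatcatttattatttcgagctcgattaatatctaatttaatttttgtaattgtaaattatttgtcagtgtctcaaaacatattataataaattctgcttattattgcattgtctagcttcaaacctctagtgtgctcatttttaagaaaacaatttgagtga
MED27, chr3R:5654899-5655099, plus strand: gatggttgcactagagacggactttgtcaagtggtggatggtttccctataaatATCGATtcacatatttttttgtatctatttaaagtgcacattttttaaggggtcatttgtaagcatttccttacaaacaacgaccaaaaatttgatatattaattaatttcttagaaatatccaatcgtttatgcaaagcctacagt
kto, chr3L:19836466-19836666, plus strand: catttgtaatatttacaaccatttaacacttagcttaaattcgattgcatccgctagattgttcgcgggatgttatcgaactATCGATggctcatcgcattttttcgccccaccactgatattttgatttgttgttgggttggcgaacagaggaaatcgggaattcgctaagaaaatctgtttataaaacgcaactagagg
MED28, chr3R:25476860-25477060, plus strand: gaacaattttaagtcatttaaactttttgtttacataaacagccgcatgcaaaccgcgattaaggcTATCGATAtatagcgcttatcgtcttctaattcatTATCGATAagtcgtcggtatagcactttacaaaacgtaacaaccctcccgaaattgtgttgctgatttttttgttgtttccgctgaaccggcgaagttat
MED25, chr3R:20008803-20009003, plus strand: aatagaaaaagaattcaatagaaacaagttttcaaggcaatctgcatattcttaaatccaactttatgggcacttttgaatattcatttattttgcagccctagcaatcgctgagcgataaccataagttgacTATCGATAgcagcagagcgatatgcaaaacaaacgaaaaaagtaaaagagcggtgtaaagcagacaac
MED19, chr3L:17846450-17846650, minus strand: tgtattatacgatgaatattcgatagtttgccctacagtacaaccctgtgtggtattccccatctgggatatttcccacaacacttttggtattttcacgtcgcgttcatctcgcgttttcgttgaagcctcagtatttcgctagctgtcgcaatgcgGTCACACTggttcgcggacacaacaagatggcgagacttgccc

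Some Mediator promoters without a peak hold the same letters. The next sequences run from 150 bases before to 50 after the start site, in the same writing. MED17 and MED18 each hold a whole DRE and MED22 holds a Motif 1 core, and none of these 3 genes had a peak.
MED17, chr3R:18188922-18189122, plus strand: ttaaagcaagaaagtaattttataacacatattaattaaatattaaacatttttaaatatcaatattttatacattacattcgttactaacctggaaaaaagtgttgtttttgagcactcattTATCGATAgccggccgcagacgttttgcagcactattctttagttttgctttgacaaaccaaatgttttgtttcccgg
MED18, chrX:1865759-1865959, plus strand: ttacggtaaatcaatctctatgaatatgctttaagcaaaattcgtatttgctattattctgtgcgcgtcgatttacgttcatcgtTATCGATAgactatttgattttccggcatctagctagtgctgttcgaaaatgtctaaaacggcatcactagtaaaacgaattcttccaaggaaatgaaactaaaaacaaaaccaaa
MED22, chrX:927989-928189, plus strand: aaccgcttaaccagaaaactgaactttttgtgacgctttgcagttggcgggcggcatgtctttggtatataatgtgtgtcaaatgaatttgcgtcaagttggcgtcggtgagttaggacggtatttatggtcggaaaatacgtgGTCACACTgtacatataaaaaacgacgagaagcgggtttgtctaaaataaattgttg

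Every module other than MED14 alone had bound and unbound members. In the head, 2 of 7 genes were bound, MED6 and MED8 (28.6%, exact interval 3.67 to 71.0). In the middle it was 3 of 9, MED7, MED9 and MED19 (33.3%, 7.49 to 70.1), and in the tail 4 of 8, MED25, MED27, MED28 and MED30 (50%, 15.7 to 84.3). Of the kinase genes, 2 of 4 were bound, kto and skd (50%, 6.76 to 93.2), while CycC and Cdk8, the cyclin and kinase pair, were not. The intervals overlap widely, so no order of the modules can be read from these counts. The place of some subunits is also a matter of convention: with MED27 to MED30 counted as head and MED14 as tail, the head has 5 bound of 10 and the tail 1 of 6.

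The count for the whole complex ran from 7 to 12 across lists and rules. In the larger optimal list the same 11 genes had a peak, with 23.5% of protein-coding genes as background. Replicate 1's own list gave 11 of 29 (37.9%, background 19.5%) and replicate 2's gave 9 of 29 (31.0%, background 18.8%). With the summit within 250 bp there were 10 (34.5%, background 19.8%), and within 1000 bp 12 (41.4%, background 24.8%), the added gene being MED4. Among the upper 50% of peaks by signal there were 8 (27.6%, background 14.0%), and with a peak that spans a start site 10 (34.5%, background 17.9%). The count was lowest, 7 (24.1%, background 16.2%), when each peak was given to the nearest start site alone. In all 9 settings the Mediator share lay above the background share, and these settings share most of their peaks.

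**Figure D1:**
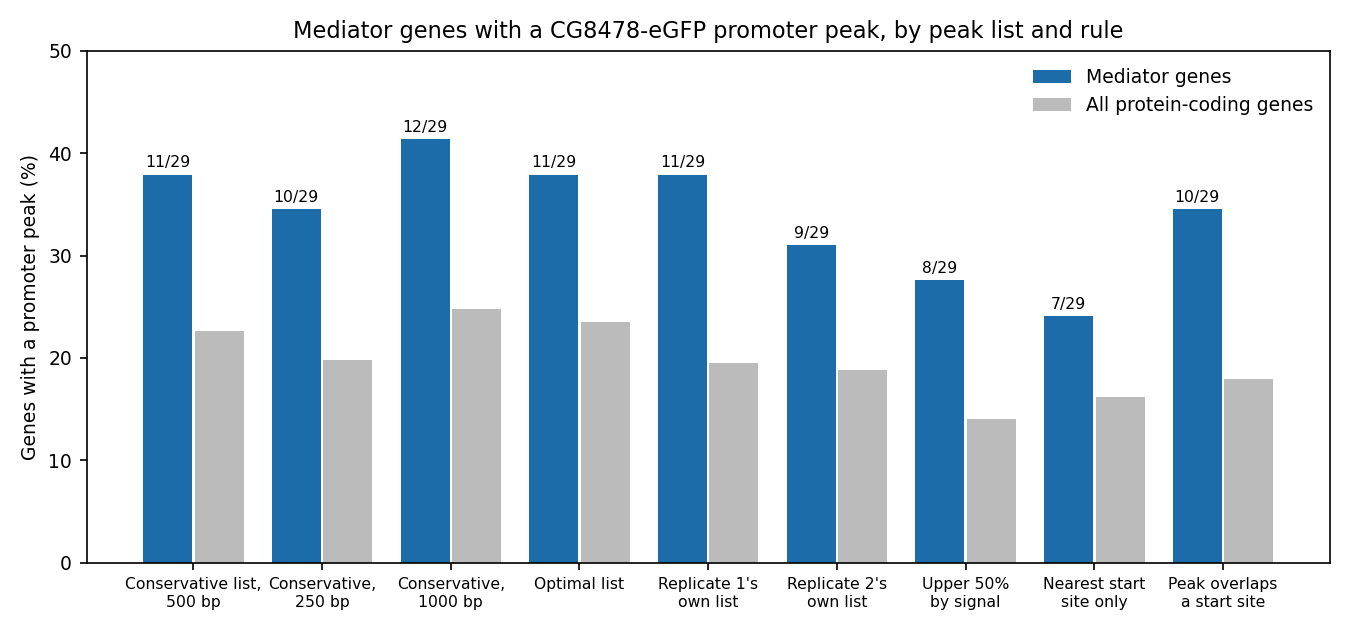
Share of genes with a promoter peak (y axis, percent) for the Mediator genes (blue) and for all protein-coding genes (grey), under 9 combinations of peak list and rule (x axis); the count of Mediator genes stands above each blue bar. The Mediator bar is the higher in each pair and runs from 24.1% with nearest start sites only to 41.4% with a 1000 bp window.

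MED7 carried by far the highest Mediator peak. MED7 (FBgn0051390), a middle subunit, had a signal of 795.0 in the conservative list (chr3R:10760921-10761323), rank 32 of the 2411 peaks at protein-coding promoters. The deposited signal comes from the authors' peak caller, has no stated scale and is used to rank peaks within a list. MED27 (FBgn0037359), a tail subunit, followed with 513.6 (chr3R:5654820-5655169), rank 143. The other 9 bound genes lay between 63.45 and 229.96. MED7 and MED27 were at percentiles 98.7 and 94.1 of promoter peaks, and 5 of the 11 exceeded the median of all 3152 bound genes. The median over the 11 was 149.4, against 165.72 over all bound protein-coding genes, so the set as a whole was not among the higher peaks.

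The authors' ranked list of both replicates gives, for each conservative peak, the signal of an input peak from each replicate. For 2890 of the 2904 conservative peaks the first input was identical in position and signal to an entry of replicate 1's own ranked list, and the second, also for 2890, to one of replicate 2's; none matched crosswise. Across the 2411 promoter peaks the log2 ratio of replicate 1's to replicate 2's input had a mean of 0.15 and an SD of 0.54. The SD serves here as the spread between replicates. It is taken over peaks of every signal level that were kept for repeating between replicates, so it may understate the scatter of weak peaks. Multiples of this spread are given without subtracting the mean, so they include the general shift towards replicate 1.

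MED7 had input signals of 397.88 in replicate 1 and 388.33 in replicate 2, and MED27 had 238.89 and 268.39. Both genes stood above every other Mediator gene in both replicates, and MED7 above MED27 in both. Among the kinase genes, kto (FBgn0001324) had 138.87 and 88.53, and skd (FBgn0003415) had 85.05 and 88.42. In replicate 2 the signals of kto and skd were nearly equal, so the higher conservative signal of kto (229.96, against 175.66 for skd) rests on replicate 1.

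In the middle and tail, MED19 (FBgn0036761) had input signals of 74.54 in replicate 1 and 84.5 in replicate 2, and MED9 (FBgn0260401) had 99.5 and 45.33. MED25 (FBgn0038760), which in mammals is contacted by activators such as nuclear receptors, had 96.1 and 63.36, and MED28 (FBgn0039337) had 83.83 and 64.38. The order of these 4 genes differed between the replicates: MED9 was highest of them in replicate 1 and lowest in replicate 2. Their conservative signals, 143.75 for MED19, 149.4 for MED9, 176.14 for MED25 and 136.71 for MED28, can therefore not be ranked. MED9 had a log2 ratio of 1.13, which is 2.08 times the spread between replicates.

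The head genes and MED30 had the lowest signals in the conservative list and in replicate 2. In replicate 1 the order differed, since MED6 (75.6) was slightly above MED19 (74.54). MED6 (FBgn0024330) had a conservative signal of 102.38 with inputs of 75.6 in replicate 1 and 25.82 in replicate 2, a log2 ratio of 1.55 and 2.85 times the spread. MED8 (FBgn0034503) had 89.68, with 66.97 and 36.18. Neither was in replicate 2's own thresholded list, so replicate 2 alone called no head gene. MED30 (FBgn0035149), a metazoan-specific subunit, was the opposite case, with a conservative signal of 63.45, inputs of 30.26 and 34.91, and a place in replicate 2's own list only. In all, 8 of the 11 were called in both replicates' own lists, against 72.5% of all bound protein-coding genes.

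**Figure D2:**
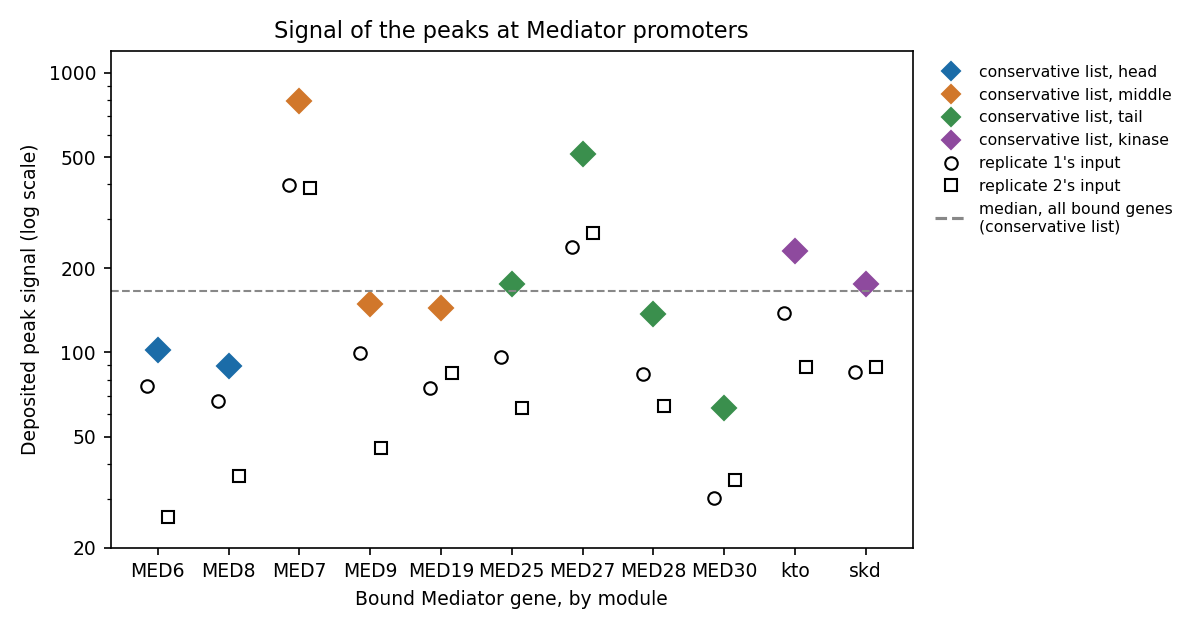
Deposited peak signal (y axis, log scale) of the 11 bound Mediator genes (x axis, ordered by module): filled diamonds are the conservative list, open circles replicate 1's input and open squares replicate 2's input; the dashed line is the conservative median of all bound protein-coding genes, 165.72. MED7 and MED27 stand above the rest in both replicates, and MED6 has the widest gap between replicates, 75.6 against 25.82.

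The summits sat just upstream of the Mediator start sites. For 10 of the 11 genes the summit was in the 150 bp before the nearest start site or on it, which holds for 63.7% of all bound protein-coding genes, and the median position was -53 bp, against -59 bp for all bound genes. MED8 had its summit exactly on the start site, and MED27 at 140 bp upstream. The exception was skd, whose summit lay 452 bp upstream of its start site, close to the 500 bp limit. The nearest unbound gene was MED4 at 997 bp, from a peak with a signal of 7.22, and the next was Cdk8 at 1831 bp. By annotation 9 summits fell between genes, that of MED8 in its own 5′ UTR, and that of MED6 in the overlapping 5′ UTRs of MED6 and its neighbour Naa80.

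Most of the peaks lay near the start sites of more than 1 gene. Another protein-coding start site lay within 500 bp of the same summit for 10 of the 11 genes (90.9%), against 60.4% of all bound protein-coding genes, and kto was the exception. With a 250 bp window it was 6 of the 10 genes then bound (60.0%), against 44.5%. At all 10 a partner was on the other strand and started upstream of the Mediator start site nearest to the summit, a divergent layout. Promoter peaks with at least 2 protein-coding genes had a median signal of 162.44, against 130.98 for those with 1 gene. MED7 faced Cap-H2, a condensin II subunit gene, with start sites 278 bp apart and the summit 107 bp from MED7 and 171 bp from Cap-H2. MED27 faced elm, also 278 bp away, and the summit was 140 bp from MED27 and 138 bp from elm. Both high peaks thus had their summit between 2 divergent start sites, nearer to MED7 at the first and about midway at the second. The peak lists do not say to which gene such a peak belongs.

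At 4 other shared promoters the Mediator gene was clearly the closer one, and at MED28 the distances were nearly equal, 43 bp from MED28 and 45 bp from CG4553. The summit was 94 bp from MED30 and 180 bp from Rev1, a translesion DNA polymerase gene. It was 49 bp from MED19 and 366 bp from CG7430, 44 bp from MED25 and 391 bp from Hs6st, a heparan sulfate 6-O-sulfotransferase gene, and 0 bp from MED8 and 464 bp from CG8929. At the other 3 the partner was closer. The skd summit was 29 bp from Pdss2, the gene of a decaprenyl diphosphate synthase subunit, and the MED6 summit was 34 bp from Naa80, an N-terminal acetyltransferase gene, and 53 bp from MED6. MED9 shares a start site with CG42518, which has a second one 28 bp upstream of it, and the summit lay 65 bp from the shared site, 37 bp from the second and 50 bp from Nup75, a nuclear pore gene on the other strand.

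**Figure D3:**
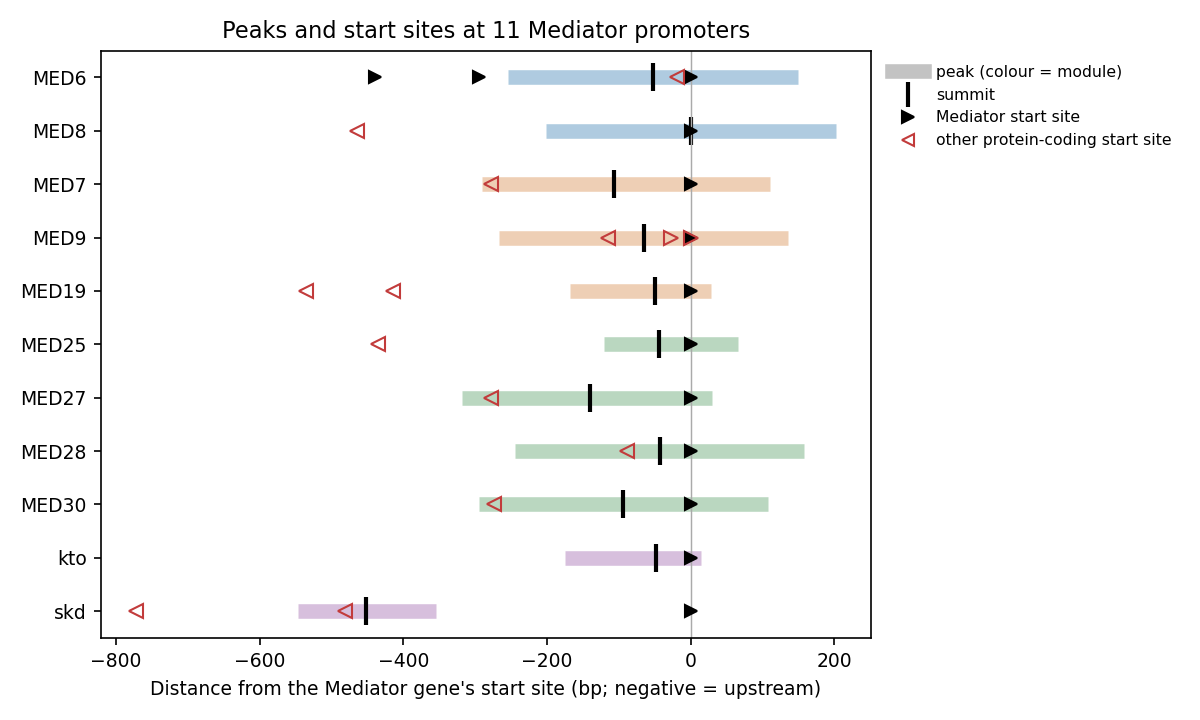
Peaks (bars, coloured by module), summits (black ticks), Mediator start sites (filled triangles) and start sites of other protein-coding genes within 500 bp of the summit (open red triangles) at the 11 bound Mediator genes; the x axis is the distance in bp from the Mediator start site nearest to the summit, and triangles point in the direction of transcription relative to the Mediator gene. The skd summit lies at -452 bp, beside the start site of Pdss2, and kto alone has no other start site.

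By the most upstream start site of each gene, 18 of the 29 Mediator genes (62.1%) had a divergent protein-coding start site within 500 bp upstream, against 26.4% of all protein-coding genes. Of these 18, 9 were bound (50%), against 46.3% of all protein-coding genes with such a neighbour. Of the other 11, 2 were bound (18.2%), against 14.1% of all protein-coding genes without one. These 2 were kto and MED6. MED6 falls here because its most upstream start site lies beyond that of Naa80, its divergent partner at the summit. Within each layout the Mediator share was thus near the background. A close divergent neighbour did not suffice for a peak: CycC starts 26 bp from UQCR-C1, MED10 46 bp from PDCD-5, MED20 47 bp from Trf and MED18 74 bp from Gcna, all without a peak.

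The bound genes were spread over 3 autosomal arms, with 5 of 8 members on 3R, 4 of 12 on 3L and 2 of 4, MED8 and MED9, on 2R. The 5 members on X, 2L and 4 had no peak. Over all protein-coding genes the bound share was 22.4% on 3R, 20% on 3L, 22.5% on 2R, 28.7% on X, 20.9% on 2L and 13.8% on 4. With 2 members on X, 2 on 2L and 1 on 4, a count of 0 there says little. Median gene length was 1198 bp for bound members and 1460.5 bp for unbound members, and over all protein-coding genes 2966 bp for bound and 1962 bp for unbound genes. Lengths varied widely within the bound set, which holds skd, at 34621 bp the longest of the 29, and MED28, at 743 bp. Peak width had a median of 403 bp at bound members and 404 bp at all promoter peaks. The peaks of MED25, kto, skd and MED19 were the narrow ones, at 188, 190, 193 and 198 bp.

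Of the 18 unbound genes, 16 had an entry in the authors' full ranked list within 500 bp of a start site (88.9%, against 69.0% of all unbound protein-coding genes). Such entries are ranked by the irreproducible discovery rate (IDR), which measures how well a peak's rank repeats between replicates; a high −log10 value means good repeatability, and no conservative peak had a value below 2.0. The call itself thus sets bound genes above unbound ones on this scale. At the bound members the value ran from 2.41 for MED30 to 5.0, the highest in the list, for MED7 and MED27. At the 16 unbound members the median was 0.159, against 0.165 for all unbound protein-coding genes with an entry. A value of 1 or more was found at 2 of the 18 unbound members (11.1%), against 8.07% of all unbound protein-coding genes. The median signal of these best entries was 32.04 at the 16 unbound members, against 24.07 at all unbound protein-coding genes with an entry. The unbound members were thus near the general level in repeatability and above it in median signal and in the share with an entry, and these differences were not tested.

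A few unbound genes stood well above the median −log10 IDR. MED14 (FBgn0035145), the scaffold, had a −log10 IDR of 1.03 with inputs of 48.96 in replicate 1 and 18.77 in replicate 2, and was the one unbound member in a replicate's own thresholded list, that of replicate 1. MED16, a tail subunit, had 1.04 with inputs of 24.58 and 17.82, and MED23, another tail subunit, had 0.81 with 22.66 and 16.46. The scaffold entry was thus present in replicate 1 alone at the authors' threshold, while those of MED16 and MED23 were low in both.

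In the kinase part, CycC had a −log10 IDR of 0.56 with inputs of 16.1 in replicate 1 and 18.47 in replicate 2, and Cdk8 had 0.32 with 13.28 and 16.15. The 5 unbound head genes MED11, MED17, MED18, MED20 and MED22 ran from 0.04 to 0.22, with no input above 27.88. In the middle, MED1, MED4, MED26 and MED31 ran from 0.09 to 0.13, and MED10 and MED21 had no entry. The remaining tail genes, MED15 and MED24, had 0.04 and 0.1.

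**Figure D4:**
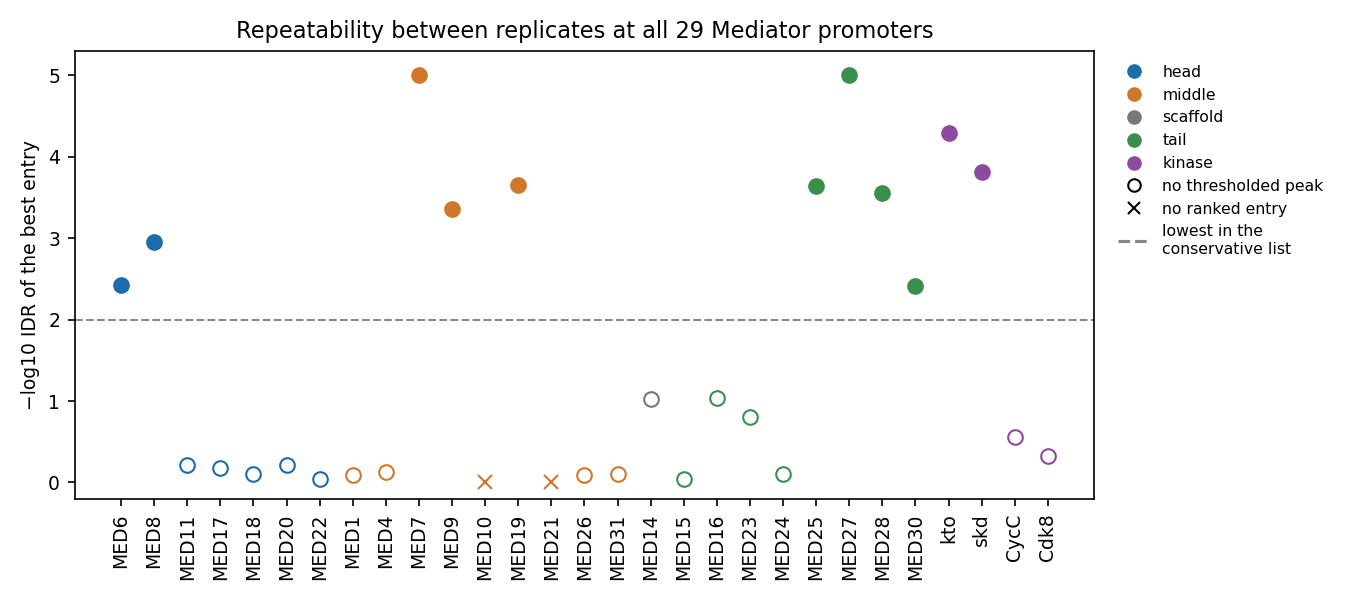
The highest −log10 IDR among ranked entries within 500 bp of a start site (y axis) for each of the 29 Mediator genes (x axis, coloured by module); filled points are bound, open points are not, crosses have no entry, and the dashed line marks 2.0, the lowest value in the conservative list. Bound genes run from 2.41 to 5.0, and no unbound gene exceeds 1.04.

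The DRE was found mainly at bound Mediator promoters. Motifs were searched on both strands from 250 bases before to 50 after the start site, the one nearest to the summit for bound genes and the most upstream one for the others. A match is a description of the letters, not a site. The DRE, TATCGATA, was in 5 of 11 bound Mediator promoters (45.5%: MED7, MED8, MED9, MED25 and MED28) and in 2 of 18 unbound ones (11.1%: MED17 and MED18). Over all protein-coding genes it was in 32.7% of bound and 2.93% of unbound promoters, and in 9.65% of all. The DRE core ATCGAT, which every DRE contains, was in 7 of 11 bound (63.6%, adding MED27 and kto) and 4 of 18 unbound ones (22.2%, adding MED14 and MED21), against 61.5% of all bound, 12.9% of all unbound and 23.9% of all promoters. Of the 11 Mediator promoters with the DRE core 7 were bound (63.6%), against 58.1% of all promoters with it, and of the 18 without it 4 were bound (22.2%), against 11.4%.

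In the sequences shown above, the DRE of MED7 is centred at -78.5 bp from the summit, where negative is upstream, the DRE core of MED27 at -43.5 bp and that of kto at -15.5 bp. At MED28 the DREs are centred at -30.5 and 4.5 bp, and at MED25 the DRE is at 36.5 bp from the summit and -7.5 bp from the start site. The element thus fell on either side of the summit. MED8 and MED9, not shown, have theirs at -47.5 and -63.5 bp. The Motif 1 core of MED19 is at 61.5 bp from the summit and 12.5 bp inside the transcript. Within 100 bp of the summit, the DRE was at 5 of 11 Mediator peaks, against 31.1% of the 2411 promoter peaks, the DRE core at 7, against 58.2%, and the Motif 1 core at 2, against 7.76%.

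Motif 1 was, by small counts, more frequent in unbound than in bound promoters of the Mediator set. Its core GTCACACT was in 2 of 11 bound promoters (18.2%: MED8 and MED19) and in 7 of 18 unbound ones (38.9%: MED10, MED11, MED15, MED20, MED22, MED23 and MED24). Over all protein-coding genes it was in 11.0% of bound, 5.44% of unbound and 6.69% of all promoters. MED8 was the one Mediator promoter with both the DRE core and the Motif 1 core. Either was in 19 of the 29 Mediator promoters (65.5%), against 28.8% of all protein-coding promoters. Among the bound ones it was 8 of 11 (72.7%), near the 66.6% of all bound promoters, and MED6, MED30 and skd held neither. Among the unbound ones it was 11 of 18 (61.1%), against 17.8% of all unbound promoters. Of the 9 Mediator promoters with the Motif 1 core 2 were bound (22.2%), against 37.0% of all promoters with it.

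Other core promoter motifs were counted in the same windows. GTATNTTT, a core of Motif 6, was in 1 of 11 bound and 8 of 18 unbound Mediator promoters (9.09% and 44.4%), against 17.2% of all bound, 14.1% of all unbound and 14.8% of all promoters. CAGCNCT, a core of Motif 7, was in 2 of 11 and 8 of 18 (18.2% and 44.4%), against 23.0%, 14.4% and 16.3%. The unbound Mediator promoters thus held the cores of Motifs 1, 6 and 7 more often than unbound promoters in general. For the bound Mediator promoters, the counts of 1 or 2 of 11 for Motifs 1, 6 and 7 are too small to set apart from bound promoters in general. Within 100 bp of the summit, the Motif 6 core was at 0 of 11 Mediator peaks, against 10.5% of promoter peaks. The Motif 7 core was at 2 of 11, against 18.6%. The E-box CAGCTG was in 2 of 11 and 3 of 18, against 21.2%, 16.7% and 17.7%, and TATAAA, the letters of the TATA box anywhere in the window, in 5 of 11 and 10 of 18, against 44.4%, 46.2% and 45.8%. TCAGT, a form of the initiator, was in 5 of 11 and 4 of 18, against 41.7%, 54.4% and 51.5%. In unbound Mediator promoters the letters TCAGT were thus less frequent (22.2%) than in unbound promoters in general. They were counted on either strand anywhere in the window, so a match need not be an initiator at the start site. GAGAGA, of the GAGA factor, was in 0 of 11 and 1 of 18, against 7.8%, 13.6% and 12.3%. No test was made of these counts: the promoters are not replicates, and a divergent promoter is read by both of its genes.

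**Figure D5:**
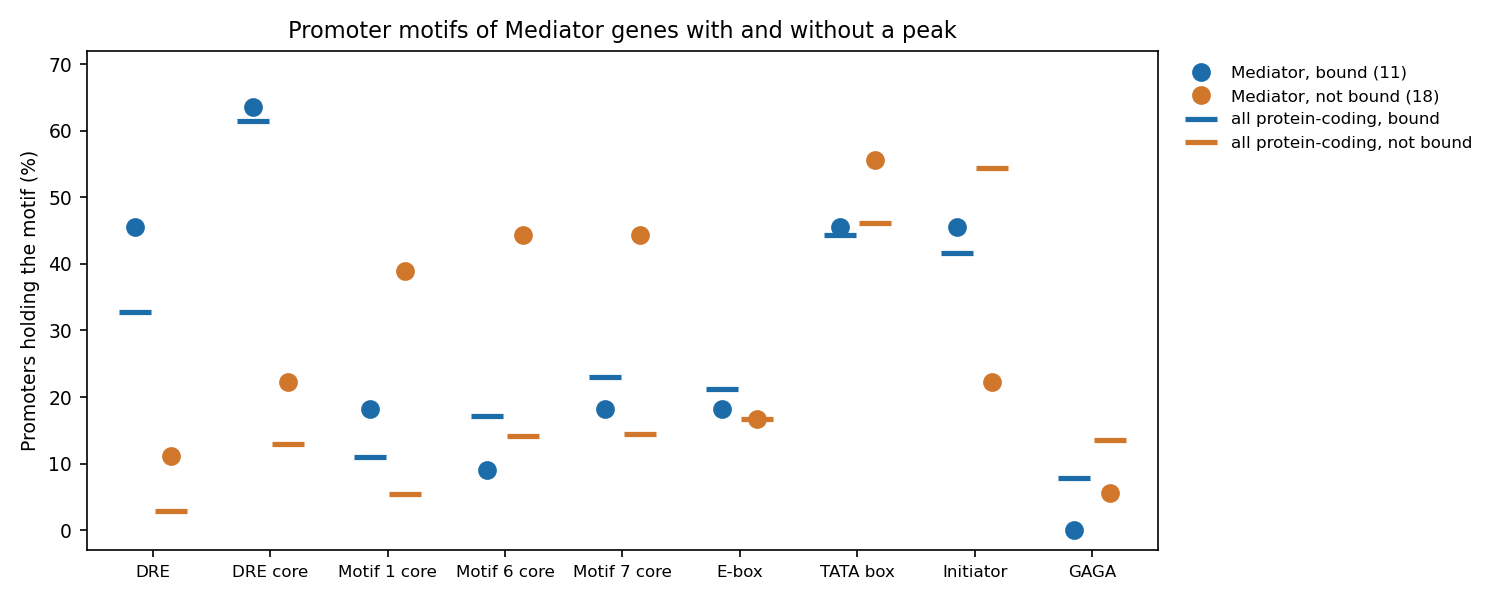
Share of promoters holding each motif (y axis, percent; x axis, 9 motifs by name) for bound (blue) and unbound (orange) Mediator genes as circles, and for all bound and unbound protein-coding genes as short lines of the same colours. The DRE and its core are the more frequent in bound promoters, while the cores of Motifs 1, 6 and 7 reach 38.9% to 44.4% of unbound Mediator promoters.

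The machinery that Mediator works with had promoter peaks at 28 of 51 genes (54.9%), read against the same 22.6%. Of TFIID, the factor that recognises core promoters, 8 of 14 genes were bound, with Taf7 (541.49) highest and Tbp unbound. Of the other general factors it was 7 of 15, led by Tfb1 (384.6), with Cdk7 (240.88), the kinase of TFIIH that phosphorylates the polymerase tail, bound and its cyclin CycH not. The RNA polymerase II list, every gene whose symbol is Polr2 with a letter after it, had 6 of 13, led by Polr2J (382.39). Genes of P-TEFb, pausing and its release had 7 of 9, among them fs(1)h (377.08), CycT (267.51) and Cdk9 (128.15). The Mediator share of 37.9% was thus below that of each of these 4 lists, and the difference was not tested. Its exact interval, 20.7 to 57.7%, covers the 22.6% of all protein-coding genes. It also covers the shares of TFIID (57.1%), the other general factors (46.7%) and RNA polymerase II (46.2%). These lists hold 14, 15 and 13 genes and have no interval of their own here. The share of P-TEFb and pausing, 77.8%, lies above the Mediator interval. It rests on 9 genes and also has no interval here, so no difference is read from it.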

How the data were processed

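The peak lists were used as the authors deposited them, in dm6 coordinates. The text notes deposited beside the lists name, as the source of each, alignments of 1 or both replicates and a control alignment. Which aligner and peak caller the authors used is not given in the sources used here. Each peak has a signal from the authors' caller, whose scale is not stated, and a summit position. The authors' ranked lists add the −log10 of the IDR and, as a score of unstated scale, the signal of both inputs.

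On the 7 main chromosome arms, entries of a thresholded list that span the same interval were merged and the higher signal was kept. This left 2904 of 2948 conservative, 3101 of 3151 optimal, 2520 of 2554 replicate 1 and 2225 of 2250 replicate 2 entries. Start sites came from Ensembl release 115 and sequence from RefSeq's Release 6 genome, the same assembly; all peaks lay within its arm lengths. Intervals are 95% exact binomial (Clopper-Pearson). No test was made, since there is 1 group and genes are not replicates.

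The members, modules, motifs and lists were chosen with earlier results of these data known. All members are named; other genes only where they share a member's peak, neighbour its promoter or belong to the machinery lists. Of the machinery symbols, 4 matched no gene: Tfb2, marr, NELF-A and NELF-E. The last 2 are other spellings of Nelf-A and Nelf-E, which matched and were counted. Peak assignment and motif search were tested on simulated data. The tools were matplotlib 3.10.9, pandas 2.3.3, SciPy 1.17.1, NumPy 2.4.6 and Python 3.11.15.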

Additional observations from a re-analysis of the deposited data

How the results depend on the processing

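Of 88 alternative settings, 68 gave counts within 1.5 times the reported one, or a median signal within the spread between replicates. The Mediator count was 7 when a peak counted for the nearest start site alone, and 9 to 11 in a single replicate's own list. Head genes numbered 0 among the upper 50% of peaks by signal, 1 with nearest start sites only, 5 with MED27 to MED30 counted as head, and 0 to 2 in a single replicate's own list. Tail genes numbered 1 under that other module assignment. Kinase genes numbered 1 with a 250 bp window, with nearest start sites only and where the peak had to span a start site, since the skd summit is far from its start site. MED14 was bound in replicate 1's own list, so the scaffold count ran from 0 to 1. The median signal of bound genes, 149.4, was 84.5 to 85.05 in the replicates' own lists and 64.38 with the lower input signal, which are signals of single replicates. Shared peaks numbered 6 with a 250 bp window. The motif counts that moved, 6 settings, were of the E-box, TATA box, initiator and GAGA letters in shorter or longer windows. With the most upstream start site for every gene, a setting chosen after seeing the data, the DRE counts were the same. Without read counts, a missing peak at a weak promoter cannot be told apart from low depth.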
